A study of Caenorhabditis elegans with 6 samples.

Results

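The genes described here are 9 members of the heterochronic pathway of *C. elegans*, *lin-14*, *lin-28*, *hbl-1*, *lin-41*, *lin-46*, *lep-2*, *mab-10*, *lin-29* and *lin-42*, followed in every mRNA-seq library of a comparison of *daf-16(0)* and control dauer larvae. They were chosen by gene name and are 9 of 20191 protein-coding genes in the deposited table of expected counts. Dauer is the stress-resistant alternative larval stage, and *daf-16* encodes the FOXO transcription factor of the insulin pathway. The *daf-16(0)* larvae carried *daf-16(mgDf50)*, a deletion allele, and *daf-7(e1372)*, and the control larvae carried *daf-7(e1372)* alone. *daf-7* encodes a TGF-β ligand whose loss causes dauer formation, so both genotypes carry that mutation. Embryos were kept at 24°C for 52 hours. Only hand-selected dauer larvae went into the libraries. Each genotype has 3 libraries of whole worms, so fewer cells of a type and less RNA per cell cannot be told apart. The labels speak of 2 biological replicates per strain, and p-values therefore measure the spread between these libraries, which may be partly technical. The strain name of the *daf-16(0)* animals differs between fields of the labels, and the genotype is the same in all of them.

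The heterochronic pathway sets the order of larval cell fates, most visibly in the lateral hypodermal seam cells, and was found through mutants that skip or repeat stages. Early-promoting members (*lin-14*, *lin-28*, *hbl-1*, *lin-41*) favour early fates, hold back later ones and are turned down in turn by microRNAs such as *lin-4* and the *let-7* family. The EGR-type zinc finger protein LIN-29 then directs the switch from larva to adult with its NAB-type cofactor MAB-10, and LIN-41, a TRIM-NHL RNA-binding protein, is known to act on the mRNAs of *mab-10* and of one class of *lin-29* isoforms. LIN-46 acts downstream of and against *lin-28*, LEP-2 is a Makorin protein needed for the decline of LIN-28, and LIN-42 is the worm homolog of Period, whose mRNA cycles with the molts.

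The libraries held 8103772 to 17808548 expected counts in protein-coding genes, and a floor of 3 counts is 0.154 to 0.426 CPM (counts per 1000000 counts, scaled with edgeR's TMM factors). Values per library run in the order of replicates 1, 2 and 3. The targeted gene *daf-16* had 40.3, 63.5 and 43.0 CPM in *daf-16(0)* libraries and 399.7, 354.7 and 197.6 CPM in control libraries. *daf-16(0)* replicate 1 and control replicate 3 were outside the comparison the authors deposited, so each fold change is given for the other 4 libraries and for all 6. Control replicate 1 had 8.64% of its counts in ribosomal RNA genes, against 0.060% to 1.44% in the other libraries. Ribosomal RNA is outside the protein-coding counts by which CPM were scaled. Control replicate 3 stood apart from the other controls in its oocyte and yolk genes (oocyte list summed to 1646 CPM, against 59.2 and 133 CPM in the other controls). *daf-16(0)* replicate 1 had 19.2 CPM over the dauer cuticle genes *col-2*, *col-40* and *cut-1*. Over these genes the other *daf-16(0)* libraries had 1175 and 1795 CPM and the controls 11056 to 42731 CPM. The labelled stage is thus matched by its cuticle markers in the controls, and those markers were low in every *daf-16(0)* library.

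Of the 9 genes, *mab-10* alone passed the test between genotypes. It rose in *daf-16(0)* dauers, with a log2 fold change of 4.43 ± 1.03 (SE, adjusted p = 0.038, edgeR's quasi-likelihood test) over 4 libraries and 5.10 ± 1.02 (adjusted p = 0.021) over 6. The share of all tested genes called in either direction was 15.0% of 13536 genes over 4 libraries and 12.5% of 13633 over 6, and the share called higher in *daf-16(0)* was 5.37% and 5.08% in those fits, with 9.59% and 7.39% called lower. One member called of 9 is near that background. The other members had log2 fold changes between -1.25 and 0.87 over 4 libraries and between -0.996 and 1.23 over 6. The median log2 fold change of the 9 genes was 0.42 over 4 libraries and 0.37 over 6, beside 0.11 and 0.09 for all tested genes. All 9 genes passed the filter on low counts, which asks for about 10 counts in as many libraries as a genotype has. *mab-10* met that minimum in every *daf-16(0)* library but in only 1 control library of the 2 or 3, so it entered the test through the genotype in which it is high. The calls of *mab-10* and the size of its change are therefore given as a description. *lin-46* met the minimum in only 2 of 3 control libraries, so it too entered the fit over 6 libraries through *daf-16(0)*. Its values over 6 libraries, with its ratios, are likewise a description.

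**Figure D1:**
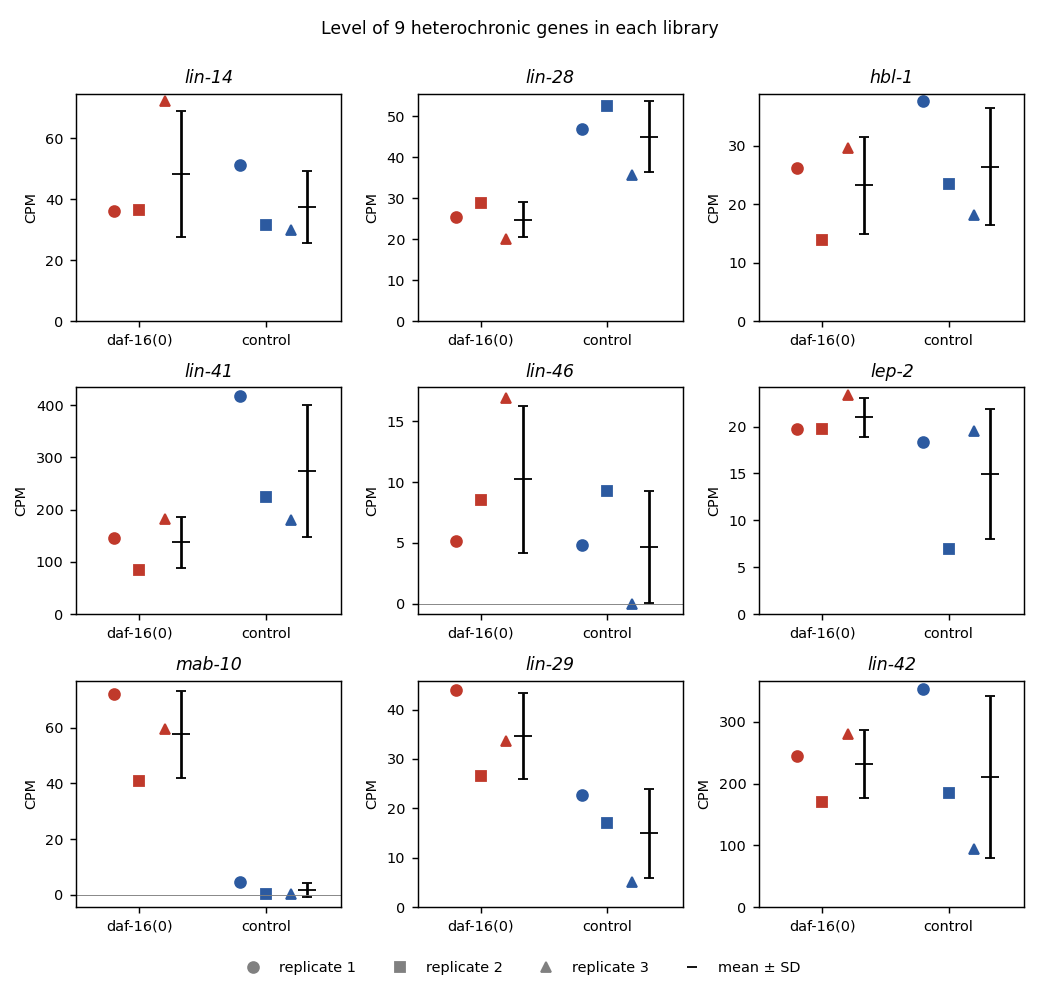
Level of each of the 9 genes in CPM (vertical axis, TMM-scaled, linear scale) in the libraries of *daf-16(0)* (left, red) and control (right, blue) dauers, with the mean and SD of each genotype as black bars. *mab-10* lies between 41.0 and 72.1 CPM in *daf-16(0)* and between 0.228 and 4.68 CPM in control, while the genotypes overlap for *lin-14*, *hbl-1*, *lin-41*, *lin-46* and *lin-42*.

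*mab-10*, on chromosome II from 10528084 to 10533880 on the forward strand (WBcel235), had 1104, 373 and 782 counts in *daf-16(0)* libraries and 33, 2 and 9 counts in control libraries. On the depth-scaled level this was 72.1, 41.0 and 59.7 CPM in *daf-16(0)* against 4.68, 0.228 and 0.462 CPM in control. The genotypes did not overlap, and the lowest *daf-16(0)* library was far above the highest control. Means with SD over 3 libraries were 57.6 ± 15.6 CPM in *daf-16(0)* and 1.79 ± 2.51 CPM in control, a 32.1-fold ratio of means. The 2 counts of control replicate 2 have an exact Poisson interval of 0.242 to 7.22 counts at 95% and lie under the floor, so the control level is set mainly by control replicate 1. Without control replicate 1 the log2 fold change was 7.72 over the remaining 3 libraries (adjusted p = 0.00024) and 7.26 over the remaining 5 (adjusted p = 0.0047), and without control replicate 2 it was 3.44 and 4.57. Where a genotype is left with 1 library, that library is assumed to vary like those of the other genotype. The call was lost without any 1 *daf-16(0)* library, with adjusted p-values of 0.056, 0.071 and 0.062 over 6 libraries without *daf-16(0)* replicate 1, 2 and 3, and of 0.054 and 0.085 over 4 without replicate 2 and 3, while the log2 fold change stayed between 4.15 and 5.32. DESeq2 gave adjusted p-values of 4.11e-05 over 4 libraries and 3.43e-07 over 6, and limma on the deposited normalized counts gave 0.095. The only annotated genes overlapping *mab-10* are non-coding RNAs with at most 2 counts in any library.

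*lin-29*, the partner of *mab-10*, lies on chromosome II from 11917642 to 11935343 on the reverse strand. It had 43.9, 26.6 and 33.7 CPM in *daf-16(0)* and 22.7, 16.98 and 5.08 CPM in control. The genotypes did not overlap, and control replicate 3 was the lowest library. The log2 fold change was 0.62 ± 0.36 (SE, adjusted p = 0.26) over 4 libraries and 1.23 ± 0.55 (adjusted p = 0.18) over 6, and without control replicate 3 it was 0.83. Counts per gene do not separate the *lin-29* isoforms, of which the annotation has 3 coding transcripts. The gene overlaps the protein-coding gene *hmg-12* on the opposite strand at its very end, and whether counting used strand is not given in the sources used here. *hmg-12* had 1506, 598 and 644 counts in *daf-16(0)* and 188, 136 and 1082 counts in control, and its part in the *lin-29* counts was not tested.

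*lin-46*, a gephyrin-like gene on chromosome V from 12968855 to 12970730, had the fewest counts of the 9 genes in every *daf-16(0)* library. It had 5.16, 8.57 and 16.9 CPM in *daf-16(0)* and 4.83, 9.23 and 0 CPM in control, where the 0 of control replicate 3 allows up to 0.154 CPM at 3 counts. The other control libraries lay within the *daf-16(0)* range or just below it, and the log2 fold change of 1.14 ± 1.39 (adjusted p = 0.62) over 6 libraries was 0.55 if either replicate 3 was left out, and 2.11 without control replicate 2. Over 4 libraries it was 0.87 ± 0.64 (adjusted p = 0.36), where leaving out *daf-16(0)* replicate 3 gave 0.32 and leaving out control replicate 2 gave 1.43.

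*lep-2* lies on chromosome IV from 992240 to 998348. Its level was 19.8, 19.8 and 23.4 CPM in *daf-16(0)* and 18.3, 6.95 and 19.6 CPM in control. The genotypes did not overlap, but the gap between them was far smaller than the spread, since control replicate 2 alone was low. The log2 fold change was 0.80 ± 0.54 (adjusted p = 0.32) over 4 libraries and 0.49 ± 0.47 (adjusted p = 0.52) over 6, and without control replicate 2 it was 0.26 and 0.14. The fold change could also grow with the same sign: it was 1.64 over 4 libraries without control replicate 1 and 0.76 over 6 without control replicate 3.

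Among the early-promoting genes, *lin-28* (chromosome I, 8407802 to 8410804, reverse strand) encodes an RNA-binding protein that blocks maturation of *let-7*. It had 25.3, 28.8 and 20.1 CPM in *daf-16(0)* and 47.0, 52.5 and 35.6 CPM in control. Every *daf-16(0)* library was below every control, with means of 24.8 ± 4.35 and 45.0 ± 8.66 CPM in *daf-16(0)* and control (SD, n = 3 each). The log2 fold change of -1.01 ± 0.34 (adjusted p = 0.089) over 4 libraries and -0.86 ± 0.31 (adjusted p = 0.10) over 6 did not pass the test.

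*lin-41* (chromosome I, 9334812 to 9342496, reverse strand) had 146.5, 84.0 and 181.8 CPM in *daf-16(0)* and 417.6, 224.9 and 180.3 CPM in control. The highest *daf-16(0)* library and the lowest control, both replicate 3, met at nearly the same level. The log2 fold change was -1.25 ± 0.49 (adjusted p = 0.12) over 4 libraries and -0.996 ± 0.43 (adjusted p = 0.17) over 6, and without control replicate 1 it was -0.75 and -0.55. Without *daf-16(0)* replicate 3 it was -1.88 and -1.26. Over 4 libraries the gene passed the threshold with DESeq2 (adjusted p = 0.048) and with no filter on low counts (adjusted p = 0.032).

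*lin-14*, a transcription factor gene and the first known *lin-4* target (chromosome X, 11465557 to 11484368), had 36.2, 36.3 and 72.0 CPM in *daf-16(0)* and 51.1, 31.3 and 29.8 CPM in control. *hbl-1*, a Hunchback-like zinc finger gene (chromosome X, 5822277 to 5827755), had 26.2, 13.9 and 29.6 CPM in *daf-16(0)* and 37.6, 23.5 and 18.2 CPM in control. Neither gene separated the genotypes, and the sign of each changed when 1 library was left out. *lin-14* had log2 fold changes of 0.42 ± 0.44 and 0.37 ± 0.39 over 4 and 6 libraries (adjusted p = 0.52 and 0.56), which were -0.13 and -0.051 without *daf-16(0)* replicate 3. *hbl-1* had -0.46 ± 0.48 and -0.18 ± 0.43 (adjusted p = 0.51 and 0.81), which were 0.0074 and 0.11 without *daf-16(0)* replicate 2.

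*lin-42* (chromosome II, 1233236 to 1252359, reverse strand) had 244.2, 171.0 and 280.1 CPM in *daf-16(0)* and 353.1, 184.1 and 94.3 CPM in control. The controls spread more widely than the *daf-16(0)* libraries and enclosed them. The log2 fold change was -0.23 ± 0.43 over 4 libraries and 0.14 ± 0.48 over 6 (adjusted p = 0.73 and 0.87).

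**Figure D2:**
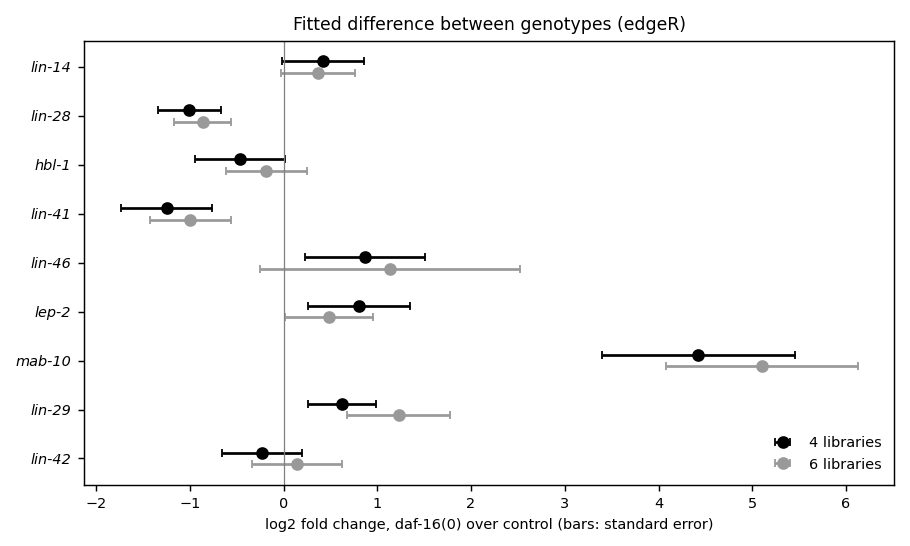
Log2 fold change of *daf-16(0)* over control (horizontal axis) with its standard error for the 9 genes (rows), from edgeR over 4 libraries (black) and 6 libraries (grey). *mab-10* stands at 4.43 and 5.10, and the other 8 genes lie between -1.25 and 1.23.

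Ratios of pairs of these mRNAs within a library do not depend on how libraries are scaled, and 6 such ratios between genes that act on or with each other were compared between genotypes. For all 6 the genotypes did not overlap, and the exact two-sided permutation test gave p = 0.10 for each, the smallest p that 3 against 3 libraries allow. Over all pairs of tested genes, the genotypes did not overlap in 40.8% of pairs, so that separation alone is common in these libraries. The same ratios were therefore also tested with limma against all genes, each adjusted p being over all ratios to the second gene of the pair.

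The ratio of *mab-10* to *lin-29* counts was 1.64, 1.54 and 1.77 in *daf-16(0)* and 0.206, 0.0134 and 0.0909 in control. *mab-10* thus had more counts than its partner in every *daf-16(0)* library and fewer in every control, and the 3 *daf-16(0)* ratios lay close together. On the log2 scale (0.5 added to each count) the difference was 4.57 ± 1.00 (SE from limma, adjusted p = 0.021), and it was 3.55 without control replicate 2 and 5.37 without control replicate 1. Of all ratios to *lin-29*, 17.3% of 13632 passed the same test. Because *mab-10* met the filter only through *daf-16(0)* libraries, this call is a description too.

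The ratio of *lin-41* to *lin-29* counts was 3.33, 3.16 and 5.40 in *daf-16(0)* and 18.4, 13.2 and 35.5 in control. This was a 5.32-fold lower ratio in *daf-16(0)* on the log2 means, a log2 difference of -2.41 ± 0.78 that missed the threshold in limma (adjusted p = 0.061). The ratio of *lin-41* to *hbl-1*, the early genes that act on different *lin-29* isoforms, was 5.58, 6.06 and 6.14 in *daf-16(0)* and 11.1, 9.58 and 9.90 in control. It had the smallest spread of the 6 ratios, with log2 SDs of 0.07 in *daf-16(0)* and 0.11 in control, and a log2 difference of -0.78 that stayed between -0.82 and -0.72 whichever library was left out. limma, which moderates each spread toward that of all genes, gave a SE of 0.49 and an adjusted p of 0.39.

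Ratios to *lin-28* were higher in *daf-16(0)* for its antagonist and for *lin-14*. *lep-2* to *lin-28* was 0.781, 0.687 and 1.16 in *daf-16(0)* and 0.3897, 0.132 and 0.550 in control, a log2 difference of 1.48 ± 0.63 (limma adjusted p = 0.13). *lin-14* to *lin-28* was 1.43, 1.26 and 3.58 in *daf-16(0)* and 1.09, 0.597 and 0.838 in control, a log2 difference of 1.19 ± 0.55 (limma adjusted p = 0.15) that was 0.72 without *daf-16(0)* replicate 3. Neither passed the test. *lin-28* to *lin-46* was 4.91, 3.36 and 1.19 in *daf-16(0)* and 9.74 and 5.69 in control replicates 1 and 2, with no *lin-46* count in control replicate 3. Its log2 difference of -3.97 (limma adjusted p = 0.57) was -1.46 without that library and -1.89 over 4 libraries, and with 0.01 or 1 in place of the 0.5 added to each count it was -5.86 or -3.64.

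**Figure D3:**
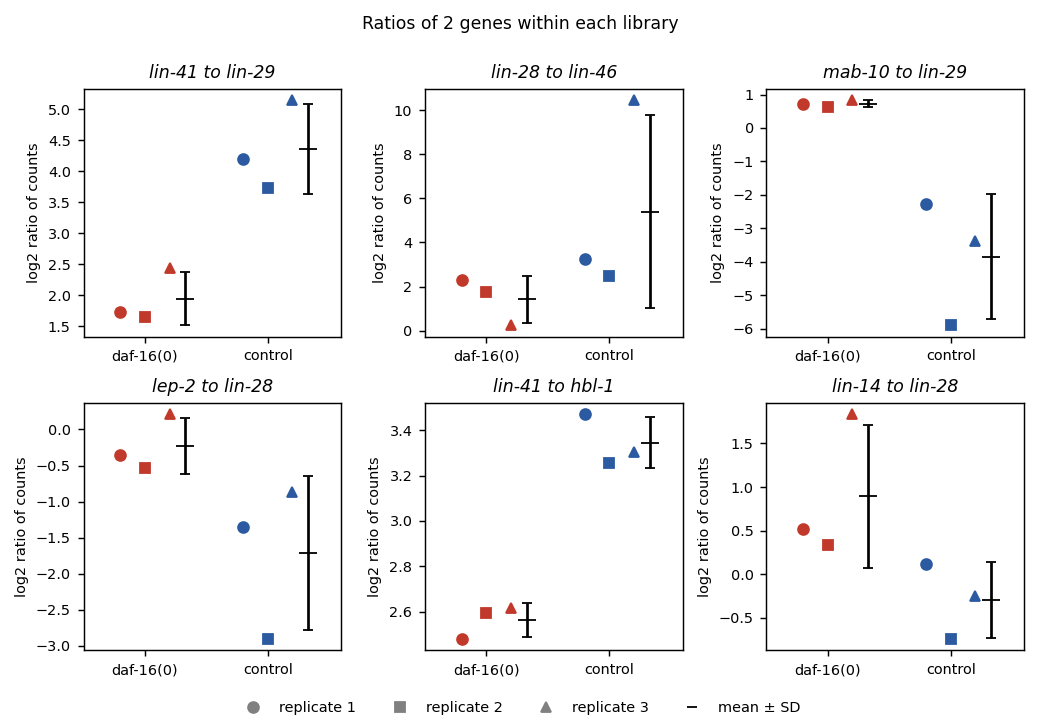
Log2 ratio of the counts of 2 genes within each library (vertical axes, 0.5 added to each count) for 6 pairs, with *daf-16(0)* libraries on the left (red), control on the right (blue), and the mean and SD of each genotype as black bars. The genotypes do not overlap in any panel, *mab-10* to *lin-29* lies between 0.62 and 0.83 in *daf-16(0)* and between -5.90 and -2.26 in control, and the highest control value of *lin-28* to *lin-46* is the library with no *lin-46* count.

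With each of 4 members as the common denominator, limma called *mab-10* against *lin-29*, *lin-28* and *hbl-1* and no member against *lin-46*. The log2 differences of *mab-10* were 6.87 ± 1.10 to *lin-28* (adjusted p = 0.019) and 6.20 ± 0.90 to *hbl-1* (adjusted p = 0.011). Against *lin-28*, *lin-29* was called too, with a log2 difference of 2.30 ± 0.58 (adjusted p = 0.049), and the same pair with *lin-29* as the denominator had an adjusted p of 0.078. The share of all genes called was 15.3% for ratios to *lin-28*, 6.48% for ratios to *hbl-1* and 0.499% for ratios to *lin-46*. All ratios to 1 gene share that gene's error. They were run on the genes passing the filter over 6 libraries. *mab-10* reached its minimum only through *daf-16(0)* libraries, so its calls here are given as a description.

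Over the 36 pairs of the 9 genes, 18 did not overlap between genotypes, beside the 40.8% of all gene pairs. *mab-10* took part in 7 of the 18, separating from every member except *lin-46*. The 28 pairs without *mab-10* held 11, near the share of all gene pairs, so the separations of single pairs below are a description. *lin-41* was relatively lower in *daf-16(0)* in all 6 of its pairs that did not overlap, those with *lin-14*, *hbl-1*, *lep-2*, *mab-10*, *lin-29* and *lin-42*. Its log2 ratio to *lin-42* was -1.03 to -0.62 in *daf-16(0)* and 0.24 to 0.93 in control, so *lin-41* had fewer counts than *lin-42* in all *daf-16(0)* libraries and more in all controls. *lin-41* to *lin-28* differed by only -0.11 and overlapped, with both genes lower in level in *daf-16(0)*. *lin-29* was relatively higher in *daf-16(0)* than *lin-28*, *hbl-1*, *lin-41* and *lin-42*, and overlapped with *lin-14*, *lin-46* and *lep-2*.

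**Figure D4:**
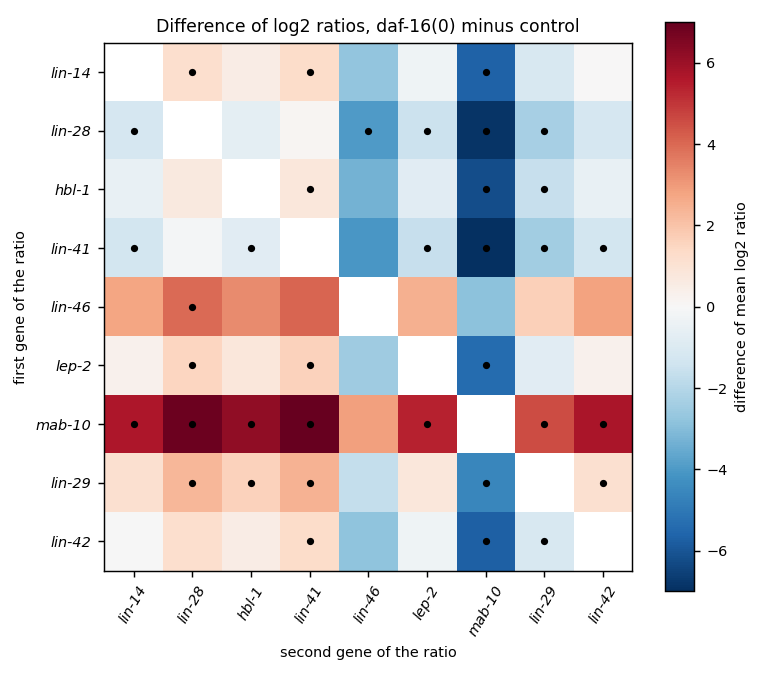
Difference of the mean log2 count ratio, *daf-16(0)* minus control (colour), for the gene in each row over the gene in each column, with a dot where the genotypes do not overlap. The *mab-10* row is red throughout, from 2.89 against *lin-46* to 6.98 against *lin-41*, and 18 of the 36 pairs carry a dot.

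To compare the 9 genes with each other, CPM were divided by the length of their merged exons in Ensembl gene models of WBcel235, which for 6 of the genes do not have the same ends as the deposited models. In *daf-16(0)* the order of mean CPM per kb was *lin-42* (57.8), *lin-41* (28.6), *mab-10* (20.03), *lin-28* (17.04), *lep-2* (15.3), *lin-29* (15.1), *lin-14* (13.1), *lin-46* (7.49) and *hbl-1* (5.19). In control it was *lin-41* (57.0), *lin-42* (52.5), *lin-28* (30.99), *lep-2* (10.9), *lin-14* (10.2), *lin-29* (6.48), *hbl-1* (5.90), *lin-46* (3.43) and *mab-10* (0.623). *mab-10* was in the third place in *daf-16(0)* and the last in control. Neighbours in the order overlapped between libraries, except *lin-42* and *lin-41* in *daf-16(0)* and *lin-28* and *lep-2* in control.

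As a share of the summed CPM per kb of the 9 genes, the early-promoting *lin-14*, *lin-28*, *hbl-1* and *lin-41* together made up 34.0%, 36.04% and 36.6% in *daf-16(0)* and 54.8%, 59.7% and 64.8% in control. The late-promoting *lin-46*, *lep-2*, *mab-10* and *lin-29*, named for the fates they favour and not for when they act, made up 33.4%, 33.4% and 30.5% in *daf-16(0)* and 11.01%, 11.9% and 14.6% in control. The ratio of late to early was 0.913 ± 0.075 in *daf-16(0)* and 0.208 ± 0.014 in control, as mean and SD of 3 libraries, and its libraries lay close together within each genotype although the single genes spread widely. *mab-10* did not carry all of it: without *mab-10* the ratio was 0.586, 0.643 and 0.566 in *daf-16(0)* and 0.189, 0.199 and 0.223 in control. Single genes did not all follow their class. The share of *lin-41* was 16.3%, 12.5% and 17.8% in *daf-16(0)* and 33.65%, 28.9% and 32.8% in control. That of *lin-14* was 5.29%, 7.09% and 9.24% in *daf-16(0)* and 5.40%, 5.28% and 7.11% in control. Shares of *lin-14*, *lin-28*, *lin-46* and *lep-2* overlapped between genotypes, and those of *hbl-1*, *lin-41*, *mab-10* and *lin-29* did not. These sums are a description with no test, since the genes were assembled with earlier results of these libraries known.

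**Figure D5:**
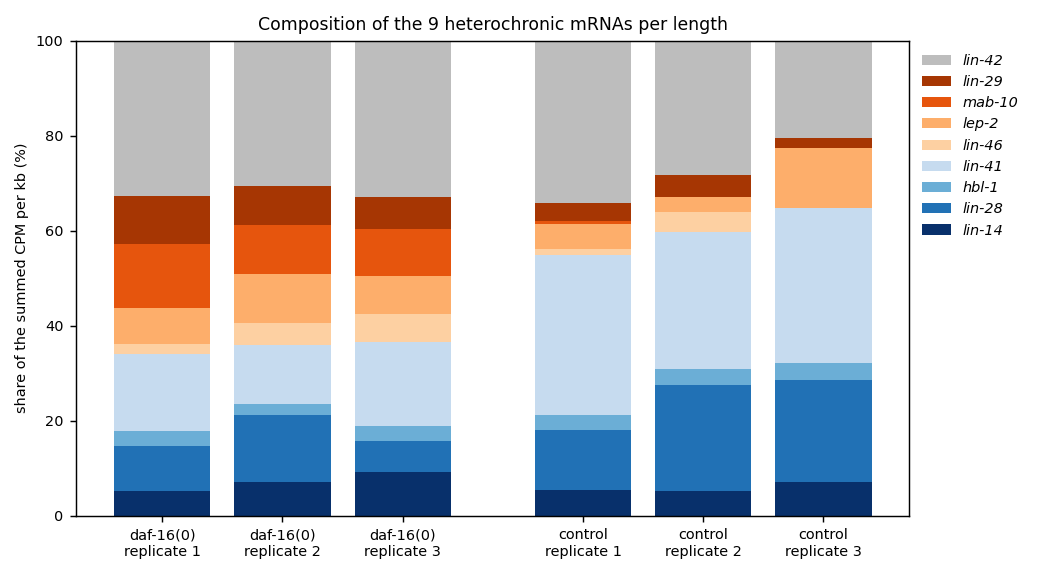
Share of each gene in the summed CPM per kb of the 9 genes (vertical axis, percent), with 1 stacked bar per library, *daf-16(0)* on the left and control on the right. Early-promoting genes (blue) make up 34.0% to 36.6% in *daf-16(0)* and 54.8% to 64.8% in control, and late-promoting genes (orange) 30.5% to 33.4% in *daf-16(0)* and 11.01% to 14.6% in control.

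Of 20 other genes of the pathway, 14 protein-coding genes could be tested, and 1 of them was called over 4 libraries and 2 over 6, near or below the 15.0% and 12.5% of all tested genes. *daf-12*, the nuclear receptor gene that links dauer signals to the pathway, fell in *daf-16(0)*, with 52.5, 79.3 and 110.0 CPM in *daf-16(0)* and 336.4, 242.9 and 149.9 CPM in control. Its log2 fold change was -1.59 ± 0.34 (adjusted p = 0.030) over 4 libraries and -1.59 ± 0.41 (adjusted p = 0.044) over 6. *nhr-23*, a nuclear receptor gene of the molting cycle, passed over 6 libraries only, at 1.42 ± 0.37 (adjusted p = 0.045, against 0.080 over 4), with 46.9, 44.1 and 52.3 CPM in *daf-16(0)* and 26.8, 13.9 and 12.98 CPM in control. The other 12 did not pass in either fit, among them *blmp-1*, *lin-66*, *puf-9*, *kin-20*, *myrf-1* and *myrf-2*. The list had a median log2 fold change of -0.42 over 4 libraries and -0.37 over 6, beside 0.11 and 0.09 for all tested genes.

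The long non-coding RNA *lep-5*, which acts with LEP-2 against LIN-28, was tested with genes of all biotypes. It fell in *daf-16(0)*, to 333.5, 283.5 and 280.6 CPM, against 885.9, 1433.4 and 844.3 CPM in control. The log2 fold change was -2.01 ± 0.39 (adjusted p = 0.024) over 4 libraries and -1.80 ± 0.36 (adjusted p = 0.021) over 6. *lep-5* and *lin-28* were thus both lower in all *daf-16(0)* libraries, while *lep-2* was not. The rows of *lin-4*, *let-7*, *mir-48*, *mir-84* and *mir-241* held 0 counts in every library, which allows up to 3 counts per library; libraries of this kind do not measure mature microRNAs. Of the other known LIN-41 mRNA targets, *mab-3* had 6.98, 5.83 and 2.59 CPM in *daf-16(0)* and 4.26, 4.79 and 0 CPM in control (adjusted p = 0.95 over 4 libraries and 0.75 over 6), and *dmd-3* was at 0 in all libraries but control replicate 1, with 0.426 CPM.

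The 7 collagen genes linked to LIN-29, which encode cuticle proteins of late stages, all had *daf-16(0)* libraries above control libraries, and 6 were called higher in each fit, where 5.37% and 5.08% of all tested genes were called higher. The exception was *col-63* over 4 libraries (adjusted p = 0.067) and *col-7* over 6 (adjusted p = 0.059). Genotypes did not overlap in 40.9% of all tested genes. As with *mab-10*, some of the 7 passed the filter only through *daf-16(0)* libraries, and their calls are given as a description. These were 3 over 4 libraries (*col-7*, *col-62* and *col-63*) and 5 over 6 (with *col-38* and *col-49*). Over 6 libraries *col-38*, *col-49* and *col-63* met the minimum in 2 control libraries as well, 1 fewer than the filter asks for. *col-62*, at 0 in all controls, was at least 108-fold higher over 4 libraries and at least 241-fold higher over 6 against 3 counts per control library. *col-17* met the minimum in both genotypes, with 640.2, 887.4 and 780.7 CPM in *daf-16(0)* and 102.5, 19.7 and 19.8 CPM in control (adjusted p = 0.026 over 4 libraries and 0.016 over 6). *col-19*, the adult collagen gene whose reporter the study followed, met it too, with 458.6, 355.8 and 180.6 CPM in *daf-16(0)* and 1.56, 1.94 and 15.2 CPM in control (adjusted p = 0.0039 and 0.014). Collagens of this list were of interest to the study in these samples, so the list is not independent evidence of its direction. Among these 7 collagens and *mab-10*, control replicate 3 was above the other controls only for *col-7* and *col-19*.

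Summed markers of molting, neurons and seam cells also separated the genotypes, while the sums of the yolk and oocyte lists overlapped between them. The molting list of 10 genes summed to 1910 to 3110 CPM in *daf-16(0)* and 575 to 1241 CPM in control. Of the 10, 3 (*mlt-10*, *noah-1* and *noah-2*) were called higher in each fit, beside 5.37% and 5.08% of all tested genes. *mlt-11*, *noah-1* and *noah-2* had the highest means of the list in both genotypes. *nas-36* and *nekl-2* had lower means in *daf-16(0)*, with log2 fold changes of -0.64 and -0.45 over 4 libraries and -0.77 and -0.27 over 6. Only 4 of the 10 genes were higher in every *daf-16(0)* library than in any control, and genotypes did not overlap in 40.9% of all tested genes. The neuron list of 10 genes summed to 871 to 1352 CPM in *daf-16(0)* and 2026 to 3049 CPM in control, with 4 of 10 genes called lower over 4 libraries and 6 of 10 over 6, beside 9.59% and 7.39% of all tested genes. The seam list of 11 genes summed to 112 to 358 CPM in *daf-16(0)* and 470 to 1198 CPM in control. Of this, *grd-3* alone had 45.6, 122.7 and 157.2 CPM in *daf-16(0)* and 343.3, 275.3 and 835.5 CPM in control. 6 of the 11 genes were lower in every *daf-16(0)* library than in any control, beside the 40.9% of all tested genes without overlap in either direction. *bro-1* and *grd-13* had higher means in *daf-16(0)*, and *nhr-73* was at 0 in every library. *elt-1* alone of 9 tested genes was called lower over 4 libraries (adjusted p = 0.049), and 0 over 6 (adjusted p = 0.087 for *elt-1*). These counts of called genes are near or below the 9.59% and 7.39% of all tested genes called lower. The yolk list summed to 13848 to 25621 CPM in *daf-16(0)* and to 322, 124 and 18356 CPM in control replicates 1, 2 and 3. All 6 of its genes were called higher over 4 libraries and 0 over 6, beside 5.37% and 5.08% of all tested genes. *vit-2*, *vit-5* and *vit-6* in control replicate 3 were within the range of *daf-16(0)* libraries or above it, while *vit-1*, *vit-3* and *vit-4* were below every *daf-16(0)* library there. The oocyte list summed to 2415, 917 and 197 CPM in *daf-16(0)* and to 133, 59.2 and 1646 CPM in control. Of its 12 genes, 1 was called higher over 4 libraries and 0 over 6, beside the same shares of all tested genes. The sperm list was at most 14.9 CPM in any library, with *spe-38* at 0 throughout. The part of these tissues and stages in the levels of the 9 genes was not tested.

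The genes whose log2 CPM followed each member most closely over the 6 libraries were ranked among protein-coding genes with an average log2 CPM of at least 3, as a description in which many genes share the difference between genotypes. Nearest to *mab-10* were *sym-1* (Pearson r = 0.998), *lipl-6* (0.997) and *dpy-20* (0.997), of which *dpy-20* is needed for normal body shape. Nearest to *lin-29* were *ZC123.1* (0.996), *pho-9* (0.995) and *eat-3* (0.992). Nearest to *lin-41* was *lin-66* (0.994), itself a heterochronic gene that lowers *lin-28*, followed by *gei-8* (0.993) and *rig-4* (0.989). *lin-28* was followed most closely by *W02F12.2* (0.995) and *nas-23* (0.994), *lep-2* by *ppw-2* (0.996), *lin-14* by *prx-12* (0.994), *hbl-1* by *lrk-1* (0.989), *lin-46* by *ins-27* (0.993) and *lin-42* by *mua-3* (0.993). None of these nearest genes was another of the 9 members.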

How the data were processed

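Whole dauer larvae were sequenced as paired-end mRNA libraries. After read trimming (Trimmomatic 0.39) and alignment to WBcel235 (STAR 2.4.2a), the authors used RSEM 2.1 and deposited its expected counts, not normalized, for 46904 genes of all 6 libraries. Their signal values, deposited for 4 libraries, are these counts over DESeq2 size factors. Their table of log2 fold changes and p-values was not used. Expected counts of protein-coding genes were rounded. Fits used edgeR 4.0.16 (R 4.3.3), TMM factors, edgeR's filter on low counts and Benjamini-Hochberg adjustment over all tested genes, and calls use an adjusted p of at most 0.05. Standard errors are the fold change over the root of the F statistic. Ratios used limma 3.58.1 and SciPy 1.17.1. The code was tested on simulated data. Depth and its floor are given with the data, and they cover counting error only. Intervals are exact Poisson. Alternatives were DESeq2 1.42.0, RLE normalization, other filters, all biotypes, limma on the signal values (1 added), other pseudocounts, a replicate block and leaving out each library. Testing *lep-5* over 6 libraries was chosen after seeing the data.

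The 9 genes, the lists and the ratios were chosen with earlier results of these data known. Genes named are the 9 members, the listed pathway genes, collagens and markers, and for each member the 3 genes most like it, of which the nearest are named. *lin-29* and *hmg-12* share their ends, and *hmg-12* was named after its values were seen.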

Additional observations from a re-analysis of the deposited data

How the results depend on the processing

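The count of members called, 1 in both fits, was 2 over 4 libraries with DESeq2 and with no filter on low counts (*mab-10* and *lin-41*), and 0 with limma on the normalized counts (1 at an unadjusted p under 0.05, *mab-10*). It ranged from 0 to 1 when a library was left out of either fit. With 1 library left out, uncalled genes crossed 0 over 4 and over 6 libraries, *lin-14* from -0.13 to 0.86 and from -0.051 to 0.67, *hbl-1* from -1.09 to 0.0074 and from -0.40 to 0.17, and *lin-42* from -0.62 to 0.30 and from -0.19 to 0.74. *lin-42* also turned to 0.14 between the fits over 4 and over all 6 libraries. The cause was not tested. The ratio of *mab-10* to *lin-29* passed the threshold with limma across all genes (difference 4.57), and the 6 ratios kept their direction under every alternative run. The smallest permutation p over 4 libraries was 0.33.

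Calls over all genes were 2025 over 4 libraries and 1701 over 6, against 3695 and 3490 with DESeq2, 3600 over 4 with no filter, and 840 with limma. The replicate numbers did not pair the libraries: same-numbered libraries had correlations of -0.09, -0.01 and -0.28 in their deviations from genotype means, and no library correlated best with its own number. With a replicate block 384 genes were called over 6 libraries, and 1 member, *mab-10*, stayed called at a log2 fold change of 5.94. The promoter motif search was not run. Depth limits *lin-46* and the control level of *mab-10*, which rest on few counts.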
